A study of Mus musculus with 4 samples.

Results

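Classical Th1 cells (cTh1) were set against CXCR3- naive thymocytes (TT naive) on 2 of the 4 gene arrays of the study, 1 array for each population, and each gene is described by its log2 level in cTh1 minus its log2 level in TT naive. The cTh1 cells were wild type, on the C57BL/6 background and 8 weeks of age: CD4+CD62Lhi T cells of the spleen were cultured for 5 days with CD3/CD28 antibody beads, 2 ng/ml of IL-12, 50 U/ml of IL-2 and IL-4 blocked by an antibody. The TT naive cells were CD4+CD62L+CXCR3- thymocytes sorted from 8 week old C57BL/6 mice of the genotype CIITAtg, which carry the MHC class II activator CIITA as a transgene. Their array had the lowest Th1 genes of the possible baselines and was chosen for that, so a Th1 gene's difference from it is a description of size and no support for a Th1 identity. The other arrays are given beside the compared pair. The first held natural Th1 cells (nTh1, CD4+CD62L+CXCR3+ thymocytes of CIITAtg mice of the same age). The second, the array labelled naive, held by its label CD4+CD62Lhi cells of wild-type spleen, also 8 weeks. Zbtb16, the gene of the innate-like T cell factor PLZF, was at 12.23 on that last array against 9.36 in TT naive, so its cell type label is in doubt and it is called by its label throughout. TT naive also held Zbtb16 above cTh1 (7.31) and the highest Foxp3, the regulatory T cell factor, of the 4 arrays (9.87). The name TT naive is likewise a label, and the purity of that population was not tested. Tissue, genotype, culture and activation all differ between cTh1 and TT naive and cannot be told apart, and the sources used here give neither the promoter that drives the transgene nor the number of animals behind an array.

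Th1 cells are helper T cells that direct the defence against intracellular microbes. IL-12 acts through its receptor and STAT4, and Th1 cells carry T-bet, the factor encoded by Tbx21 that opens the interferon gamma gene. Antigen receptor and CD28 signals with IL-2 also drive growth, glycolysis and division, so a cultured effector cell differs from a resting naive cell in its metabolism as well as in its cytokines. The thymic naive cell is at the end of its maturation and carries the receptors that let it leave for the periphery.

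The deposited values covered 22180 genes, of which 12728 reached the median of all values, log2 6.61, on at least 1 of the 2 arrays and were counted. Among them, 921 (7.24%) were higher in cTh1 by 2-fold or more and 384 (3.02%) lower by as much, around a median difference of 0.03. Among the 11363 genes above that level on both arrays, 663 were at least 2-fold higher and 281 lower. The shares of 7.24% and 3.02% are the background of each list count below against TT naive. With 1 array on each side nothing was tested, so only sizes are reported. The single error the arrays offer, the SD of the difference between probe sets of the same gene, was 0.44 over 472 genes and leaves out animals, sorts, cultures and arrays. T cell identity genes were close on both arrays: Cd4 was at 12.63 in TT naive and 12.72 in cTh1, Cd3e at 12.95 and 13.11, and 0 of 14 T cell identity genes reached 2-fold in either direction. Levels are compared between arrays for the same gene and never between genes, because probes differ in brightness.

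**Figure D1:**
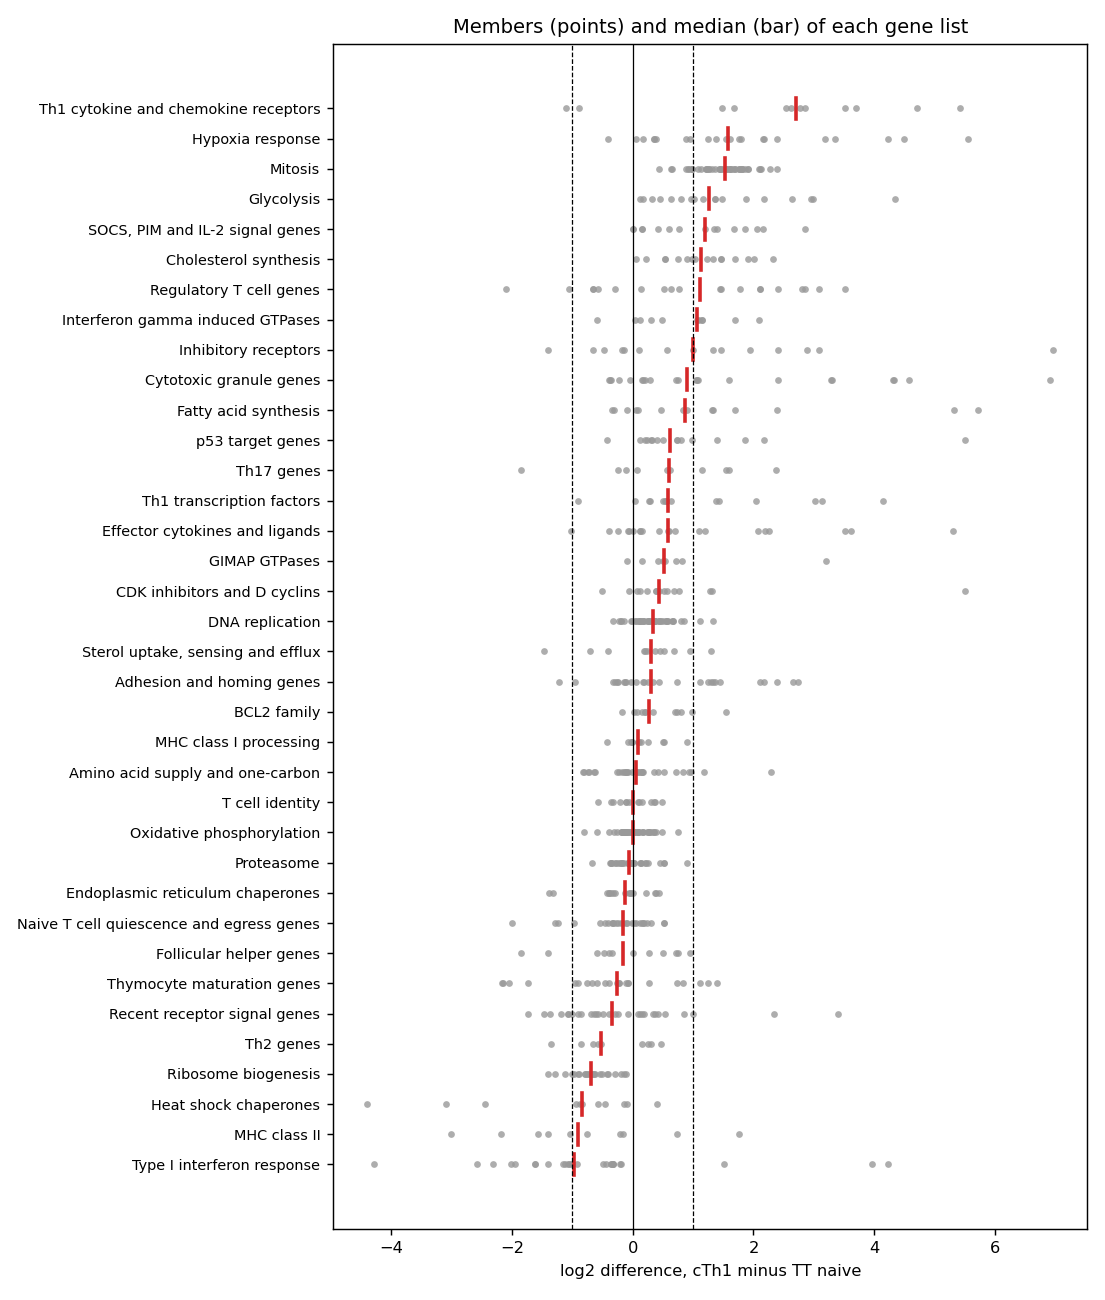
Each grey point is 1 measured gene at its log2 difference (x axis, cTh1 minus TT naive), each row is 1 gene list, the red bar is the list's median, and dashed lines mark 2-fold. Sex-linked transcripts and markers of non-helper cells are not drawn. Among the rows drawn, receptors of Th1 cytokines and chemokines have the highest median (2.70) and the type I interferon response the lowest (-0.97).

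The factors of the Th1 programme were higher in cTh1 for 6 of the 14 measured members, and 0 were at least 2-fold lower, with a list median of 0.59. Over the array labelled naive 5 of 14 were higher (5.13% of all genes were) and 1 lower, with a median of 0.66. Over nTh1 4 of 14 were higher (8.3% of all genes were) and 1 lower, with a median of 0.57. Tbx21 was at 7.11 in TT naive, 11.25 in cTh1, 7.92 in nTh1 and 9.81 on the array labelled naive. Its difference of 4.14, a 17.7-fold ratio, placed cTh1 above all 3 other arrays. Bhlhe40, a repressor that favours inflammatory cytokines over Il10 in helper cells, was at 8.42 in TT naive, 11.56 in cTh1, 8.34 in nTh1 and 10.17 on the array labelled naive. Irf8, an interferon-regulated factor, was at 7.77 in TT naive, 10.79 in cTh1, 8.62 in nTh1 and 8.35 on the array labelled naive. Prdm1, which encodes the effector factor Blimp-1, was at 9.59 in cTh1 and between 7.54 and 7.67 on the other arrays. For each of these genes cTh1 was the highest array.

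Stat4 was ordered differently from these genes. Stat4, the signal carrier of IL-12, was at 11.36 in TT naive and 12.79 in cTh1, but 12.88 in nTh1, so cTh1 and nTh1 did not differ beyond the probe set spread. Runx3, the partner of T-bet at the interferon gamma gene, was at 9.71 in TT naive, 11.09 in cTh1, 10.70 in nTh1 and 9.86 on the array labelled naive. It was highest in cTh1, but above nTh1 by less than the probe set spread. Eomes, the T-box relative of Tbx21, ran the other way, with 8.84 in TT naive, 7.94 in cTh1, 10.68 in nTh1 and 10.03 on the array labelled naive. It was the lowest in cTh1 of all 4 arrays, 0.90 below TT naive, while Tbx21 was the highest there. The remaining factors stood under 2-fold, with differences of 0.64 for Irf1, 0.55 for Batf, 0.53 for Id2, 0.50 for Hlx, 0.28 for Twist1, 0.27 for Batf3 and 0.04 for Irf4.

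The receptors through which Th1 cells are instructed and guided had a list median of 2.70, and 10 of 12 members stood at least 2-fold higher, against 1 lower. Over the array labelled naive 5 of 12 passed 2-fold (5.13% of all genes did) with a median of 0.91. Over nTh1 it was 7 of 12 (8.3% of all genes) with a median of 2.21. In the main comparison 1 member, Il18rap, was above the filter through cTh1 alone. Il12rb2, the inducible chain of the IL-12 receptor, was at 6.69 in TT naive, 12.10 in cTh1, 8.93 in nTh1 and 8.83 on the array labelled naive, a difference of 5.41 or 42.6-fold. Il12rb1, its partner chain, was at 7.53 in TT naive and 10.06 in cTh1. The IL-18 receptor chains followed, with Il18rap at 6.14 and 10.85 and Il18r1 at 8.27 and 11.78. Il18r1 in nTh1 was at 8.27, equal to TT naive to 2 decimals. The inflammatory chemokine receptors were also higher: Cxcr6 was at 7.78 in TT naive and 11.47 in cTh1, Cxcr3 at 7.76 and 10.53, and Ccr2 at 7.11 and 9.74. Cells with CXCR3 protein were gated out of TT naive, so its level there is a check of the sort and no finding. Ccr2 was at 9.79 on the array labelled naive, above cTh1, so its direction depends on the baseline.

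IL-2 receptor chains and the interferon gamma receptor separated. Il2ra, the high-affinity chain induced by activation, was at 9.66 in TT naive, 12.52 in cTh1, 10.08 in nTh1 and 9.04 on the array labelled naive, and Il2rb was higher in cTh1 by 1.68. Ifngr1, the ligand-binding chain for interferon gamma, was at 11.35 in TT naive and 12.83 in cTh1. Ifngr2, the signalling chain whose level sets how strongly T cells respond to that cytokine, was at 10.77 in TT naive and 9.67 in cTh1, the lowest of the 4 arrays. The chains thus differed in opposite directions, by 1.48 and -1.10. Il27ra was 0.89 lower in cTh1.

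Of 21 measured effector cytokines and ligands, 16 were above the level filter, 4 of them through cTh1 alone, and 8 were at least 2-fold higher and 1 lower. Over the array labelled naive 5 of 16 were higher (5.13% of all genes were) and 3 lower, with a median of 0.29. Over nTh1 7 of 16 were higher (8.3% of all genes were) and 2 lower, with a median of 0.32. Ifng was at 5.88 in TT naive, 11.19 in cTh1, 7.34 in nTh1 and 8.80 on the array labelled naive, a difference of 5.31 or 39.6-fold. Ccl5, a chemokine stored by effector cells, was at 7.49 in TT naive and 11.11 in cTh1. Il10, the anti-inflammatory cytokine that Th1 cells can make, was at 4.77 in TT naive, 8.28 in cTh1, 4.92 in nTh1 and 5.41 on the array labelled naive. It exceeded the filter in cTh1 only. Fasl, the death ligand, was at 7.85 in TT naive and 10.12 in cTh1, but also at 9.60 in nTh1 and 9.93 on the array labelled naive, so TT naive was the array that stood apart.

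Other secreted products were less different. Ccl3 was higher by 2.08, Csf1 by 2.19, Tnf by 1.19 and Lta by 1.10. Il2, the growth factor of activated T cells, was at 4.75 in TT naive and 5.46 in cTh1, below the filter on both arrays. Csf2, the growth factor GM-CSF, was read differently by its probe sets: the brighter was at 6.20 and 6.21, below the filter, and the other at 4.89 in TT naive and 7.87 in cTh1, so no direction is given. Cd40lg, the helper ligand for B cells, was at 10.98 and 10.90. Xcl1, a chemokine for cross-presenting dendritic cells, was at 7.05 in TT naive and 7.18 in cTh1, against 9.36 in nTh1 and 10.02 on the array labelled naive. Tnfsf11, which encodes RANKL, was 1.02 lower in cTh1.

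**Figure D2:**
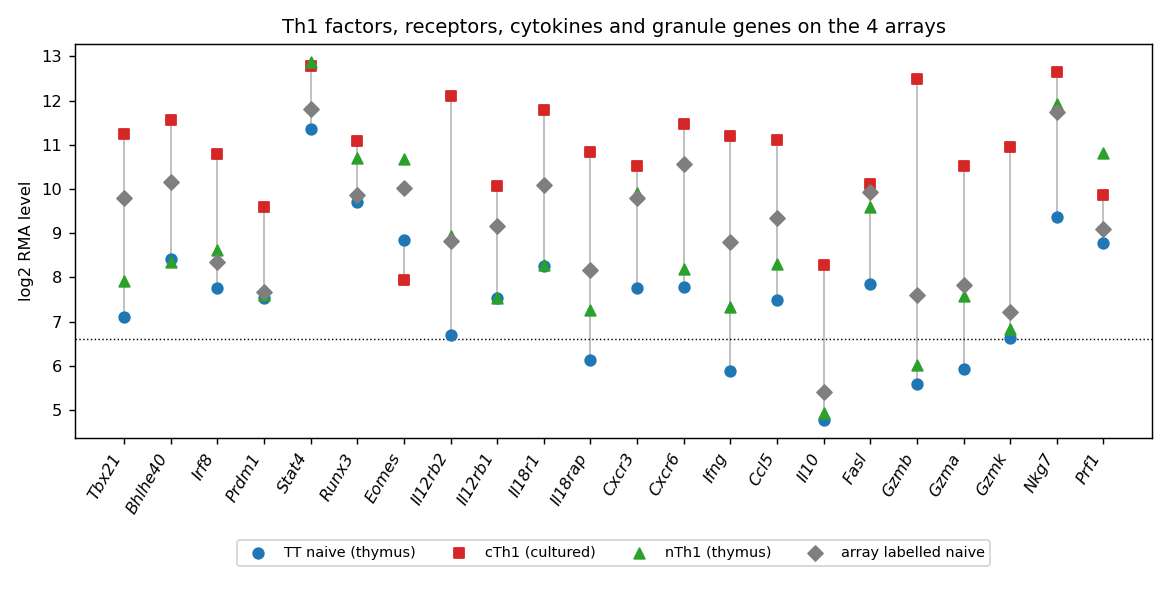
Levels (y axis, log2 RMA) of 22 Th1 genes on the 4 arrays, 1 point for each array, with a grey line joining TT naive and cTh1 and a dotted line at the level filter of 6.61. Red squares (cTh1) are the highest point for most genes, while Eomes is lowest there and Stat4 and Prf1 are higher in nTh1.

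Cytotoxic granule genes were higher in 11 of the 19 members above the filter and lower in 0, with 5 members reaching the filter through cTh1 alone, and the median over all 22 measured was 0.90. Over the array labelled naive 7 of 19 were higher (5.13% of all genes were) and 0 lower, with a median of 0.48. Over nTh1 7 of 19 were higher (8.3% of all genes were) and 0 lower, with a median of 0.66. Gzmb, the serine protease that starts apoptosis in target cells, was at 5.59 in TT naive, 12.50 in cTh1, 6.02 in nTh1 and 7.61 on the array labelled naive. Its difference was 6.90, or 119-fold. Gzma was at 5.94 in TT naive and 10.52 in cTh1, and Gzmk, another granzyme, was at 6.63 and 10.96. Nkg7, which helps granule release, was at 9.36 in TT naive, 12.64 in cTh1, 11.92 in nTh1 and 11.73 on the array labelled naive. Prf1, the pore-forming perforin, was at 8.79 in TT naive and 9.87 in cTh1, and was highest in nTh1 at 10.81. Gzmb, Gzma and Gzmk therefore did not share an order over the arrays with Prf1. Other granzymes differed less: Gzmc was higher by 1.07 and Gzmm differed by -0.04. Gzmd, Gzmf and Gzmg were below the filter on both arrays. Lysosomal members stayed under 2-fold in both directions, with differences of -0.23 for Lamp1 and, among cathepsins, -0.40 for Ctsc, 0.72 for Ctsd and 0.75 for Ctsw.

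Markers of CD8 T cells and some markers of NK cells were also higher in cTh1, and the part of such cells in the granule list was not tested. Cd8a was at 6.22 in TT naive, 10.31 in cTh1, 6.42 in nTh1 and 6.31 on the array labelled naive, and Cd8b1 was at 9.38, 10.75, 9.75 and 8.45 in the same order. Both of 2 CD8 genes passed 2-fold in cTh1, and their mean level was 10.53 there against 7.80 in TT naive. Cd8a was above the filter through cTh1 alone. Of 10 NK cell markers, 6 were above the filter and 3 at least 2-fold higher (Klrk1 by 3.51, Klrd1 by 2.55 and Itga2 by 2.18), which activated CD8 T cells can also carry. The difference was negative for 4 of the 10, Eomes (-0.90) among them. Klrk1 was above the filter through cTh1 alone. The defining NK cell genes Ncr1 and Klrb1c were below the filter on both arrays, at 5.40 and 4.84 in TT naive and 5.37 and 4.73 in cTh1. In bulk RNA, more cells of a type and more RNA for each cell cannot be told apart.

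A T-box element, AGGTGTGA, was searched on both strands of the 250 bases before each RefSeq gene start (GRCm38.p6). It was in 2 of 24 promoters of granule genes (8.33%) and in 0 of 17, 0 of 11 and 0 of 15 promoters of the factor, receptor and cytokine lists, against 1.12% of all 32851 promoters. The holders were Nkg7, which was higher in cTh1, and Rab27a, which was not (-0.36). A missing match says only that these letters are not in that window.

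Feedback genes of cytokine signalling were higher in 8 of 15 members and lower in 0, with a median of 1.19. Socs3, Cish and Socs1, inhibitors that STAT proteins switch on, were higher by 1.86, 1.40 and 1.19. The survival kinases Pim2 and Pim1 were higher by 2.16 and 2.05, although the second probe set of Pim1 gave 0.64 and those of Socs3 spanned 0.89 to 1.86. For Pim1, Socs3 and Cish the direction was the same over their probe sets, and the size was not. Socs1 and Pim2 have 1 probe set each. Socs2, counted as under 2-fold, gave 0.77 on the set used and 4.06 on the other.

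Inhibitory receptors were higher in 7 of 14 members above the filter and lower in 1, with 4 members reaching the filter through cTh1 alone, Lilrb4a, Havcr2 and Klrg1 among them. Lilrb4a, an inhibitory receptor of the immunoglobulin family, gave the largest difference among the genes named here, 6.96, from 4.96 in TT naive to 11.92 in cTh1, with 8.49 in nTh1 and 6.85 on the array labelled naive. It has a close copy in the genome, so its probes may read both. Havcr2, which encodes TIM-3, a receptor of terminal Th1 cells, was higher by 2.89, Entpd1 (CD39) by 3.09, Ctla4 by 2.40 and Lag3 by 1.95. Pdcd1, which encodes PD-1, was the exception, at 9.59 in TT naive, 8.19 in cTh1, 8.43 in nTh1 and 10.85 on the array labelled naive. It was lowest in cTh1, by less than the probe set spread from nTh1.

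Regulatory T cell genes were divided, with 10 of 20 at least 2-fold higher and 2 lower and a median of 1.11. The higher ones included genes that activated T cells share, such as Il2ra, Ctla4 and Entpd1, together with Ebi3 (2.81), a subunit of IL-27 and IL-35, and Lrrc32 (2.10), a surface anchor for TGF beta. The lineage factor Foxp3 was at 9.87 in TT naive and 9.21 in cTh1, and Gpr83, a receptor of Foxp3+ cells, was at 9.51 and 7.42. Foxp3 was at 7.29 in nTh1 and 8.82 on the array labelled naive, and Gpr83 at 7.40 in nTh1, so both directions depend on the baseline.

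Genes of the other helper programmes were compared next. Of 9 measured Th2 genes 6 were above the filter, with 0 higher and 1 lower: Il4 was at 7.39 in TT naive and 6.04 in cTh1, while Gata3, the Th2 factor that all CD4 cells also need, was at 9.86 and 10.17. Of 6 Th17 genes above the filter 3 were higher, 1 of them (Ccr6) above it through cTh1 alone, and 1 was lower. Ccr6, a homing receptor, was higher by 2.38 and Rora by 1.54, while Il21 was lower by 1.86 on the log2 scale. Follicular helper genes gave 0 higher and 2 lower among 11. Il21 was at 6.44 in nTh1, below the 7.13 of cTh1, so its direction depends on the baseline.

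Genes of naive T cells were close to equal in the cultured effector cells. None of 27 was at least 2-fold higher, 3 were lower, and the median was -0.15. Ccr7, the lymph node homing receptor, was at 12.58 in TT naive and 12.63 in cTh1, Il7r, the receptor for the survival cytokine IL-7, at 12.67 and 12.78, and Lef1, a factor of naive and memory precursor cells, at 12.68 and 12.53. S1pr1, the receptor that carries cells out of the thymus and nodes, differed by 0.18 and its regulator Klf2 by -0.24. These differences are smaller than the probe set spread of 0.44. The lower members were Id3, at 10.37 in TT naive and 8.37 in cTh1, Igfbp4, at 11.85 and 10.56, and Il6ra, at 11.16 and 9.92. Igfbp4 was at 9.80 in nTh1, below cTh1.

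Adhesion and homing genes were higher in 11 of 28 and lower in 1, with 3 members above the filter through cTh1 alone. Over the array labelled naive 2 of 28 were higher, beside 5.13% of all genes, and 2 lower. Anxa2 and Anxa1, calcium-dependent membrane proteins of effector cells, were higher by 2.74 and 2.65, Lgals3 by 2.38, S100a6 by 2.11 and the activation marker Cd44 by 1.25, although Cd44 was lower in cTh1 than on either other array, by 0.06 and 0.76 on the log2 scale. Itga4, an integrin chain, was lower by 1.22 on the log2 scale. Of 21 thymocyte maturation genes above the filter, 3 were higher and 4 lower, with a median of -0.26. Among the higher ones Bcl11a and Endou were above the filter through cTh1 alone, and Sox4, called lower, through TT naive alone. Tox, the factor of CD4 lineage choice, was at 10.58 in TT naive and 8.42 in cTh1, and Sox4 at 7.93 and 5.79. Zbtb16 was at 9.36 in TT naive, 7.31 in cTh1, 9.88 in nTh1 and 12.23 on the array labelled naive, and was the lowest in the cultured cells. Dntt, the enzyme that adds bases during receptor rearrangement in immature thymocytes, was 1.12 higher in cTh1, from 7.46 to 8.58, but was at 9.47 in nTh1.

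Early genes of antigen receptor signalling were lower more often than higher in cTh1, with 7 lower and 2 higher of 30 and a median of -0.34. The lower share was 23.3%, beside 3.02% of all genes. The higher share, 6.67%, was near the 7.24% of all genes. Nr4a1, a reporter of recent receptor signals, was at 11.51 in TT naive, 9.78 in cTh1, 11.62 in nTh1 and 12.17 on the array labelled naive. Nr4a3 was lower by 1.47, Dusp2 by 1.37 and Egr2 by 1.19 on the log2 scale. The exceptions were Ier3, higher by 3.41, and Fosl2, an AP-1 subunit, higher by 2.34. All 3 freshly sorted arrays were above cTh1 for Nr4a1.

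Genes of cell division differed in a single direction: 38 of 47 mitosis genes were at least 2-fold higher in cTh1, 0 were lower, all 47 differences were positive, and the median was 1.53. Aurkb, the kinase that corrects chromosome attachment, was at 9.34 in TT naive, 11.45 in cTh1, 9.17 in nTh1 and 10.42 on the array labelled naive. Cdc25c, the phosphatase that starts mitosis, was at 6.45 in TT naive and 8.84 in cTh1, Prc1, a spindle midzone protein, at 8.03 and 10.30, and Cdc20, the activator of the anaphase complex, at 8.62 and 10.75. The range ran from 0.44 for Plk4 to 2.38 for Cdc25c. Cdc25c and Ska1 were above the filter through cTh1 alone. With the array labelled naive as baseline 4 of 47 reached 2-fold (5.13% of all genes did) and the median was 0.46, and with nTh1 as baseline 44 of 47 reached it (8.3% of all genes) with a median of 1.61. The count thus depends on the baseline.

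DNA replication genes were near equal by comparison, with 2 of 45 at least 2-fold higher, 0 lower and a median of 0.34. Rrm2, a ribonucleotide reductase subunit, was at 9.54 in TT naive and 10.87 in cTh1, and Tk1, thymidine kinase, at 8.55 and 9.66. Pcna, the clamp of the replication fork, was at 12.20 and 12.02, and the helicase subunit Mcm2 was at 10.49 and 10.16. The medians of the mitosis and replication lists thus differed within the same pair of arrays while their ranges overlapped, and that difference was not tested.

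**Figure D3:**
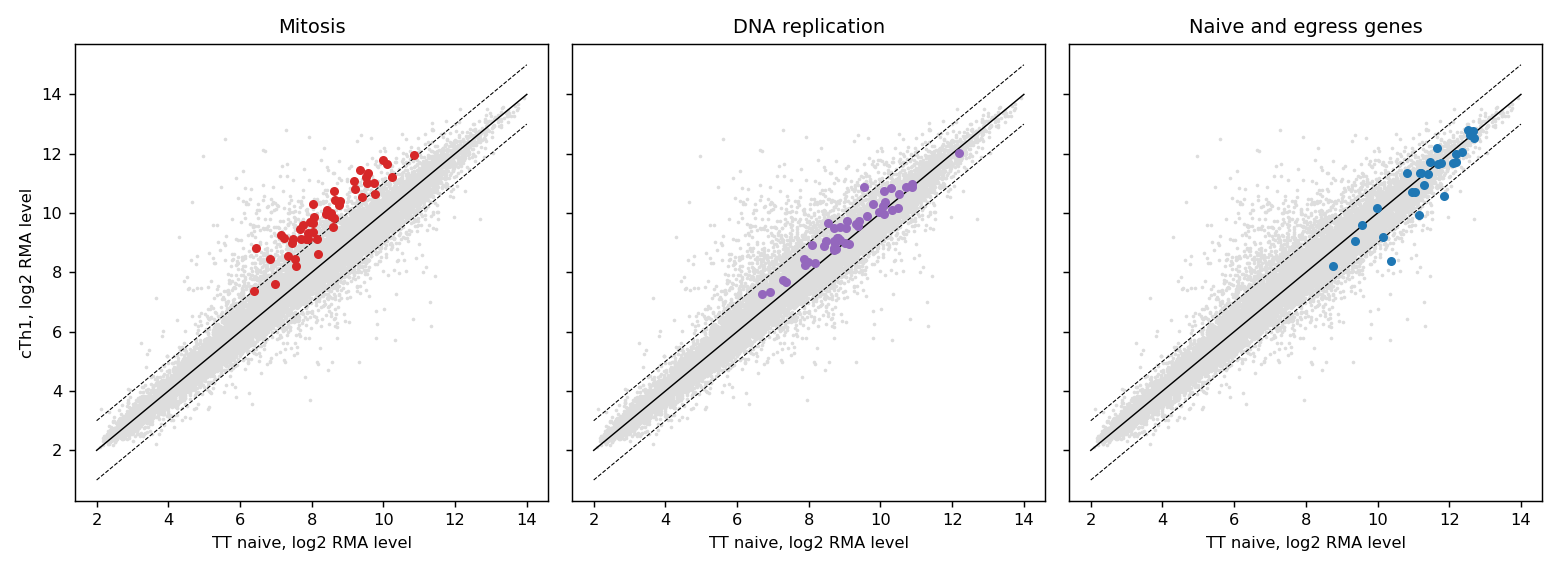
Level in cTh1 (y axis, log2 RMA) against level in TT naive (x axis, log2 RMA), 1 point for each gene, for mitosis (47 coloured points), DNA replication (45) and naive and egress genes (27), with all genes in grey, the solid line at equality and dashed lines at 2-fold. Mitosis genes lie above equality in all 47 cases, replication genes lie along it, and 3 naive genes lie below the lower dashed line.

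Promoters of these lists carried different letters. The CHR element TTTGAA together with CCAAT, a pair known from genes that peak in mitosis, was in 11 of 41 mitosis promoters (26.8%), 4 of 45 replication promoters (8.89%) and 5.55% of all 32851. An E2F element, TTTCCCGC or TTTGGCGC, was in 1 of 41 mitosis promoters (2.44%), 6 of 45 replication promoters (13.3%) and 1.3% of all. The motifs were searched on both strands, and list promoters are those RefSeq gave for 38 members of each list. Shown are the 250 bases before the start of the mitosis genes with the largest differences that hold the pair, then the replication genes with the largest that hold the E2F element, each 5′ to 3′ on the gene's strand, with the elements (or their reverse complement) in capitals. They let the pair be read beside differences of 2.27 for Prc1, 2.13 for Cdc20 and 1.80 for Ccnb2, and the E2F element beside 0.56 for Gins3, 0.46 for Cdc6 and 0.16 for Mcm7. In GRCm38.p6 they lie at chr7:80294226-80294475 (plus strand), chr4:118437344-118437593 (minus), chr9:70421555-70421804 (minus), chr8:95633309-95633558 (plus), chr11:98907901-98908150 (plus) and chr5:138171884-138172133 (minus).
Prc1: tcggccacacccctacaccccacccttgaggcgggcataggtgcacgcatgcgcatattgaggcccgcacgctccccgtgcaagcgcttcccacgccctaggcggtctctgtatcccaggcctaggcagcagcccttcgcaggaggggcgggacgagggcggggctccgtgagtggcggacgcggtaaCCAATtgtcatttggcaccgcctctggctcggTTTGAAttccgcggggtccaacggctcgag
Cdc20: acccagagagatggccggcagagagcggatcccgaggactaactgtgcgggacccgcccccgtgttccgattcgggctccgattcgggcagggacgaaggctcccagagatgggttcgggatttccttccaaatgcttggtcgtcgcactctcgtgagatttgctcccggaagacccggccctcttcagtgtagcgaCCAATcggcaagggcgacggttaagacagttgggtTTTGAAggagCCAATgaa
Ccnb2: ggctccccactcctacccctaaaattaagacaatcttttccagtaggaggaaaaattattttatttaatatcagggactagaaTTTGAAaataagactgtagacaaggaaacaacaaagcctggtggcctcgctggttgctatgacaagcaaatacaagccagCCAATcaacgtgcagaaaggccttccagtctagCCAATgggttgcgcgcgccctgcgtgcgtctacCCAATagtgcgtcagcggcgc
Gins3: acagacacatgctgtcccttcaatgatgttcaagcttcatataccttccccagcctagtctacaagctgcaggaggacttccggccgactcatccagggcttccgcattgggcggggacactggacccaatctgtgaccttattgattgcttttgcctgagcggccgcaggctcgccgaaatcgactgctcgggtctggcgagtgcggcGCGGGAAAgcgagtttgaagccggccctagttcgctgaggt
Cdc6: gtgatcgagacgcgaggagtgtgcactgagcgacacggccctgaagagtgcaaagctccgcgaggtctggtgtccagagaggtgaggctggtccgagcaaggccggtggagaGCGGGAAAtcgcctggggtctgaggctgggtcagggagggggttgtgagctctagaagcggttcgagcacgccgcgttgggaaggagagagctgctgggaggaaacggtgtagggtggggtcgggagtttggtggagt
Mcm7: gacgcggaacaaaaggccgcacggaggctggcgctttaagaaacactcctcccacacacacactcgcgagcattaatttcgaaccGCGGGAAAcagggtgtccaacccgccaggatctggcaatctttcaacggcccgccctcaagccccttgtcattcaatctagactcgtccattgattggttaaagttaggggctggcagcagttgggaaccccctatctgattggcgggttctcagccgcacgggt

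The pair TTTGAA and CCAAT reads along the gene's strand in the mitosis promoters shown, and CCAAT occurs more than once in Cdc20 and Ccnb2. All 3 replication promoters show GCGGGAAA, the reverse complement of TTTCCCGC. The Gins3 promoter also holds TTTGAA and CCAAT, left in lower case here. A match is a description of letters and not evidence that a factor was bound.

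Among CDK inhibitors and D cyclins 3 of 15 reached 2-fold upward and 0 downward, with a median of 0.43. Cdkn1a, which encodes the inhibitor p21, was at 6.63 in TT naive, 12.13 in cTh1, 7.39 in nTh1 and 7.77 on the array labelled naive, a difference of 5.50. Cdkn2c, another inhibitor, was higher by 1.28 and the kinase gene Cdk6 by 1.32. Of 15 p53 targets above the filter 4 were higher and 0 lower, among them Phlda3 (2.18) and the death receptor Tnfrsf10b (1.86), while Mdm2, the feedback regulator of p53, differed by 0.31. Perp, also among the 4, was above the filter through cTh1 alone. Bcl2l11, the pro-apoptotic protein BIM, was higher by 1.55.

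Glycolysis genes were higher in cTh1 in 11 of 18, lower in 0, and all 18 differences were positive, with a median of 1.26. Slc2a3, a glucose transporter, was at 8.76 in TT naive, 11.75 in cTh1, 8.97 in nTh1 and 9.37 on the array labelled naive. Hk2, the inducible hexokinase, was at 6.33 in TT naive and 9.28 in cTh1, while the constitutive Hk1 was at 9.43 and 9.55. Hk2 was above the filter through cTh1 alone. Aldoc, an aldolase, was at 7.32 and 11.67, the triose phosphate isomerase Tpi1 was higher by 2.17 and the lactate exporter Slc16a3 by 2.63. Ldha, which makes lactate, differed by 0.17. The named enzymes therefore spread from near equality to over 4 log2 units within a single pathway.

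Genes known to respond to low oxygen were higher in 14 of 21 members above the filter and lower in 0, with a median of 1.57, and 3 members (Ak4, Plod2 and P4ha2) reached the filter through cTh1 alone. Egln3, an oxygen-sensing prolyl hydroxylase that HIF-1 itself induces, was at 7.27 in TT naive, 12.82 in cTh1, 8.11 in nTh1 and 9.09 on the array labelled naive. Ak4, a mitochondrial adenylate kinase, was at 6.31 in TT naive, 10.81 in cTh1, 6.59 in nTh1 and 7.59 on the array labelled naive. Plod2, a collagen-modifying enzyme, was at 5.36 and 9.59, the vessel growth factor Vegfa at 6.97 and 10.33, and the mitophagy receptor Bnip3 at 7.05 and 10.23. Hif1a, the oxygen-regulated subunit, was at 10.41 in TT naive and 12.19 in cTh1. For each of these genes cTh1 was above all 3 sorted populations.

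The core of the hypoxia element, ACGTG, was in 15 of 30 promoters of the hypoxia list (50.0%) and 12 of 25 of glycolysis (48.0%), against 16.6% of all 32851. The promoters of the most different holders, Egln3 (chr12:54203875-54204124, minus strand) and Ak4 (chr4:101419453-101419702, plus strand), are shown with the core in capitals, so that it can be read beside differences of 5.54 and 4.50.
Egln3: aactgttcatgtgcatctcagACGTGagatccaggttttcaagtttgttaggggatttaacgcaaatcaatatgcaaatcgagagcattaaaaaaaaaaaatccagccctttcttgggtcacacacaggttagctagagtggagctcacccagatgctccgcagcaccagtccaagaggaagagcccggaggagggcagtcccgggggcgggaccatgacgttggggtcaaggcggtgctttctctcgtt
Ak4: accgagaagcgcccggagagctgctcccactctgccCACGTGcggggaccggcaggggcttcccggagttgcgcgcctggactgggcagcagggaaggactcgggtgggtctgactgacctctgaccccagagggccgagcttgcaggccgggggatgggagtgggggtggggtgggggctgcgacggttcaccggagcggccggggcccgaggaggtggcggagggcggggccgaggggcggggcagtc

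In Ak4 the capitals read CACGTG, which holds the core on both strands, and in Egln3 it occurs once. These genes were chosen for display after their values were seen.

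Sterol synthesis was higher throughout its list, with 9 of 16 enzymes at least 2-fold higher, 0 lower, all 16 positive and a median of 1.13. Hmgcs1, which makes the precursor of mevalonate, was at 8.69 in TT naive, 11.01 in cTh1, 8.09 in nTh1 and 8.59 on the array labelled naive. Cyp51 was at 7.72 in TT naive and 9.73 in cTh1, and Sqle, squalene epoxidase, at 7.91 and 9.81. Fdps was higher by 1.70. Insig1, which holds SREBP back in the endoplasmic reticulum and is itself an SREBP target, was higher by 0.95. Abca1, the cholesterol exporter that LXR switches on, was at 9.50 in TT naive and 8.04 in cTh1, the lowest of the 4 arrays. Uptake, sensing and efflux genes as a list gave 1 higher and 1 lower of 12.

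The sterol regulatory element TCACNCCAC was in 1 of 16 promoters of the list (6.25%) and 1.05% of all, and CCAAT, the site of its usual partner NF-Y, was in 13 of 16 (81.2%) against 33.8% of all. The promoter that holds the element is that of Hmgcs1 (chr13:119690101-119690350, plus strand), the list member with the largest difference, 2.32, shown with the element in capitals.
Hmgcs1: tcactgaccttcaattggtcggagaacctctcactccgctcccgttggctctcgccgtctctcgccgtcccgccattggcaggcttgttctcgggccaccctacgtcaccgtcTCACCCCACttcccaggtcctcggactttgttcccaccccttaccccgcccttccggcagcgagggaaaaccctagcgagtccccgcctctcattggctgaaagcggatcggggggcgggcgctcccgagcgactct

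Fatty acid synthesis genes gave 6 of 14 at least 2-fold higher and 0 lower, with 3 members (Scd1, Fads2 and Me1) reaching the filter through cTh1 alone. The higher members included the desaturases Scd1, Fads2 and Fads1 (1.34), the elongase Elovl6 (1.69) and the NADPH source Me1 (2.40). Scd1, the stearoyl-CoA desaturase, was at 4.66 in TT naive, 10.38 in cTh1, 6.39 in nTh1 and 5.44 on the array labelled naive. Fads2, the first desaturase of polyunsaturated fatty acids, was at 6.09 in TT naive, 11.41 in cTh1, 8.88 in nTh1 and 6.95 on the array labelled naive. Both were highest in cTh1. The enzymes that build the chain were near equal, with differences of -0.09 for Fasn, 0.09 for Acaca and -0.30 for Acly.

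Other metabolic lists were close to the background. Oxidative phosphorylation gave 0 higher and 0 lower of 44 with a median of 0.00, and the proteasome 0 and 0 of 35 with -0.06. Amino acid supply and stress genes gave 2 higher of 28, Asns (7.34 in TT naive and 9.63 in cTh1), asparagine synthetase, and Sesn2 (1.18 higher), while Atf4, the factor that drives both, was at 9.21 and 8.97. Its composite element TGATGNAAN was in 4 of 29 promoters of that list (13.8%) and 3.44% of all. GIMAP GTPases, which support the survival of naive T cells, gave 1 of 8, Gimap7, at 7.92 in TT naive and 11.12 in cTh1, while the probe sets of its relative Gimap1 gave 0.72 and 3.50.

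Ribosome biogenesis was lower, with all 24 measured members negative and a median of -0.69, of which 3 reached 2-fold: Utp20 (-1.40) and Gnl3 (-1.12), which act in pre-ribosome assembly and nucleolar growth, and Polr1b (-1.28), a subunit of RNA polymerase I. Probe sets of a gene differed here, from -1.29 to -0.10 for Npm1 and from -2.06 to -0.96 for Nop56. Heat shock chaperones were lower in 3 of 10. Hspa1b was at 10.83 in TT naive, 6.44 in cTh1, 8.58 in nTh1 and 9.19 on the array labelled naive, Hspa1a was at 9.80 and 6.71, and Hsph1 at 10.42 and 7.98. Hspa1a and Hspa1b are near-identical copies, so their probes may read each other. All 3 sorted populations were above the cultured cells for these genes. Endoplasmic reticulum chaperones gave 0 higher and 2 lower of 17 with a median of -0.13, and the 2 were Hspa5, lower by 1.39, and Dnajb9, lower by 1.33 on the log2 scale.

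The type I interferon list and the list of interferon gamma induced GTPases had medians of opposite sign. Of 25 genes of the type I interferon response that entered, 13 stood at least 2-fold lower in cTh1 and 2 higher, with a median over 26 of -0.97. Oas2, an RNA sensor that activates RNase L, was at 11.29 in TT naive, 7.01 in cTh1, 11.32 in nTh1 and 10.94 on the array labelled naive. Ifit1, which binds foreign RNA caps, was at 10.42 in TT naive, 8.40 in cTh1, 10.36 in nTh1 and 10.66 on the array labelled naive. The 3 sorted populations lay close together for both genes and cTh1 stood below them. Oasl1 was at 8.93 in TT naive and 6.35 in cTh1, Rsad2, the antiviral enzyme viperin, at 8.47 and 6.85, Mx2 was lower by 2.31 and Rtp4 by 1.95 on the log2 scale.

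The higher members were the small membrane proteins that block virus entry: Ifitm1 was at 6.15 in TT naive and 10.38 in cTh1, and Ifitm3 at 6.91 and 10.88. Ifitm2, below the filter on both arrays, was higher by 1.51. IFITM genes are close copies of each other, so their sizes are uncertain. In contrast, the GTPases best known from interferon gamma were at least 2-fold higher in 6 of 10 members above the filter and lower in 0, with a median over 11 of 1.07. Over nTh1 3 of 10 were higher (8.3% of all genes were) and 1 lower, with a median of 0.49. The MHC class I and class II lists given below did not follow these GTPases. Gbp3 was at 6.70 in TT naive, 8.78 in cTh1, 7.18 in nTh1 and 7.22 on the array labelled naive, and Gbp5 at 7.68, 9.37, 8.04 and 7.56. Irgm2, Gbp7, Iigp1 and Igtp were higher by 1.15, 1.14, 1.10 and 1.07, while Gbp9 was 0.59 lower. Guanylate binding proteins are a multigene family in clusters, and their probes may read neighbouring members.

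**Figure D4:**
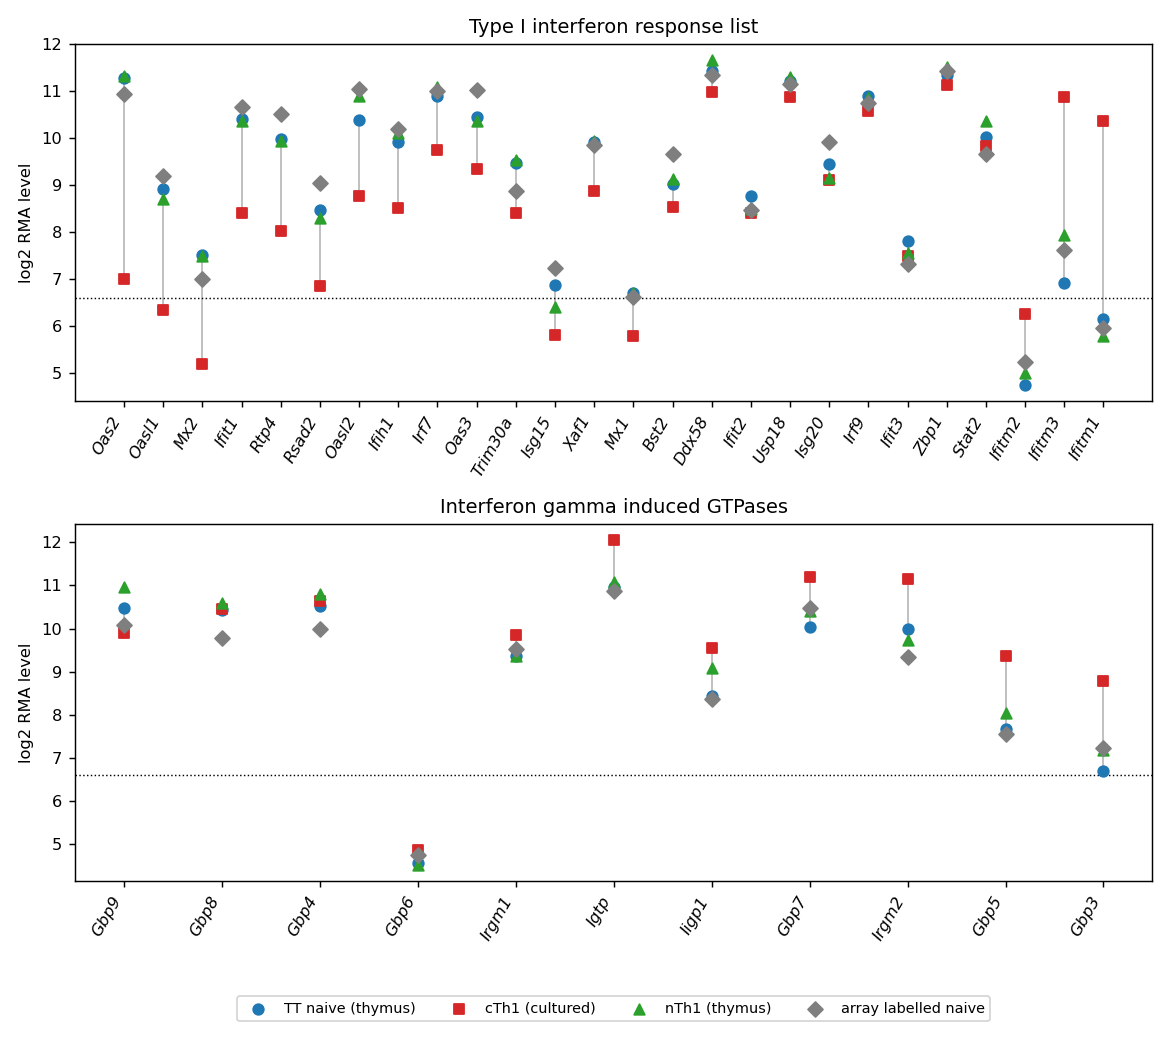
Levels (y axis, log2 RMA) of the 26 type I interferon response genes and 11 interferon gamma induced GTPases on the 4 arrays, ordered by difference, with a grey line joining TT naive and cTh1 and a dotted line at the filter of 6.61. In the upper panel cTh1 (red squares) lies below TT naive for 23 of 26 genes; in the lower panel it lies above for 10 of 11.

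The interferon-stimulated response element, searched as a GAAA block repeated after a gap of 2 bases and read by STAT and IRF factors, was in 9 of 25 type I list promoters (36.0%), 6 of 7 GTPase promoters (85.7%) and 2.98% of all. Both lists hold it although their medians had opposite signs. Shown are Gbp3 (chr3:142559794-142560043, plus strand) and Gbp5 (chr3:142496684-142496933, plus), which were higher, then Ifit1 (chr19:34640639-34640888, plus) and Rsad2 (chr12:26456453-26456702, minus), which were lower, with the element or its reverse complement in capitals. They were chosen after their values were seen.
Gbp3: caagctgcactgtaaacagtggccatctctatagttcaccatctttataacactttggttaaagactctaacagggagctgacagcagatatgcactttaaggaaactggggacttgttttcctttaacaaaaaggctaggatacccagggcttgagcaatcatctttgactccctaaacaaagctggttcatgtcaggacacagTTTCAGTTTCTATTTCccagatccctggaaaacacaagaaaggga
Gbp5: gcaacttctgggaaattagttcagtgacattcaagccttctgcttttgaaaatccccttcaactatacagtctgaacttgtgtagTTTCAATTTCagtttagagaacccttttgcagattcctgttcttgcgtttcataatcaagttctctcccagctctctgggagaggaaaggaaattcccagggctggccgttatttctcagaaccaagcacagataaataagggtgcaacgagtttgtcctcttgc
Ifit1: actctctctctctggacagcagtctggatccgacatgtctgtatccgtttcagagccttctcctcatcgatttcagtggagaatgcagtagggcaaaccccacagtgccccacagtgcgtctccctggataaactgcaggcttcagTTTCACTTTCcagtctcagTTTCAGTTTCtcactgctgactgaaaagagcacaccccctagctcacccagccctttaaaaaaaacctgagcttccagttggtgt
Rsad2: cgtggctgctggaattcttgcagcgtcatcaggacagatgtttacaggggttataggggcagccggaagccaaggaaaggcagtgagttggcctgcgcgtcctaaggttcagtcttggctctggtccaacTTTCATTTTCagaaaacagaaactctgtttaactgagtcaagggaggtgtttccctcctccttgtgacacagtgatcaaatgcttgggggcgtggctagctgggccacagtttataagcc

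The capitals in each of the 4 promoters are the reverse complement of the element, a TTTC block repeated after the gap. Gbp3 and Ifit1 hold 2 matches, which overlap in Gbp3, and Gbp5 and Rsad2 hold 1.

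MHC class II genes were lower in cTh1 in 5 of 10 and higher in 1, with a median of -0.90. Their mean level was 10.53 in TT naive, 9.75 in cTh1, 10.96 in nTh1 and 11.14 on the array labelled naive. That last array, wild type by its label, was thus above both CIITAtg arrays, so its genotype label is in doubt too and was not tested. H2-Aa, the alpha chain of I-A, was at 12.29 in TT naive, 10.73 in cTh1, 12.66 in nTh1 and 12.66 on the array labelled naive. H2-Eb2 was at 11.19 in TT naive and 8.18 in cTh1, and H2-Ab1 and H2-Eb1 were lower by 1.04 and 1.40 on the log2 scale. The peptide loader subunit H2-DMb1 was lower by 2.17. H2-Oa, an inhibitor of peptide loading made by B cells, was at 9.07 in TT naive and 10.83 in cTh1. It was at 9.22 in nTh1 and 10.30 on the array labelled naive, so cTh1 exceeded that array by only 0.53. H2-Ob, of the same list, was 0.75 lower in cTh1 than in TT naive. Ciita was at 7.28 in TT naive and 8.00 in cTh1, which is no check of the genotype, since the probes need not match the transgene of the TT naive mice. MHC class I processing gave 0 higher and 0 lower of 12, with B2m at 13.92 and 13.89.

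B cell markers were higher in cTh1, with 10 of 14 above the filter at least 2-fold higher, 8 through cTh1 alone, and 0 lower. Cd79a was at 6.50 in TT naive, 10.29 in cTh1, 7.64 in nTh1 and 6.53 on the array labelled naive, Cd22 was higher by 3.22, Cd79b by 3.16 and Ms4a1 by 3.06, while the lineage factor Pax5 was at 6.72 and 7.51. The mean of 16 markers was 6.50 in TT naive and 8.31 in cTh1. Immunoglobulin segment genes pointed the same way, with 11 of 14 at least 2-fold higher, 0 lower and a median of 2.37. The part of B cells in H2-Oa, or in any other gene that B cells also express, was not tested. With markers of other cell types, immunoglobulin and sex-linked genes left out, 888 genes were higher and 381 lower.

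Myeloid markers gave 5 of 14 above the filter at least 2-fold higher and 0 lower, with 4 of the 14 above it through cTh1 alone: Cybb by 2.75, Mpeg1 by 1.76, Fcgr3 by 1.43, Lyz2 by 1.11 and Cst3 by 1.00. Their mean level over 26 was 6.31 in TT naive and 6.77 in cTh1, and it was highest in nTh1 at 7.59. Dendritic cell markers gave 1 of 3 higher, thymic epithelial markers 1 of 6, and erythroid and platelet markers 0 of 2. The dendritic and epithelial genes called, Flt3 and Prss16, were above the filter through cTh1 alone. Among Y-linked transcripts, Kdm5d was at 8.46 in TT naive and 4.72 in cTh1, Eif2s3y at 8.55 and 4.97 and Uty at 7.80 and 4.48, with Xist at 13.03 and 12.56. TT naive thus held both Xist and Y-linked transcripts, as did the array labelled naive (Kdm5d at 8.17, Xist at 12.6). In nTh1, as in cTh1, Xist was high (13.25) and Kdm5d low (4.72). The sex of the animals is given nowhere in the labels used here. Y-linked signal therefore moves with the comparison, and the part of sex in any other gene was not tested.

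**Figure D5:**
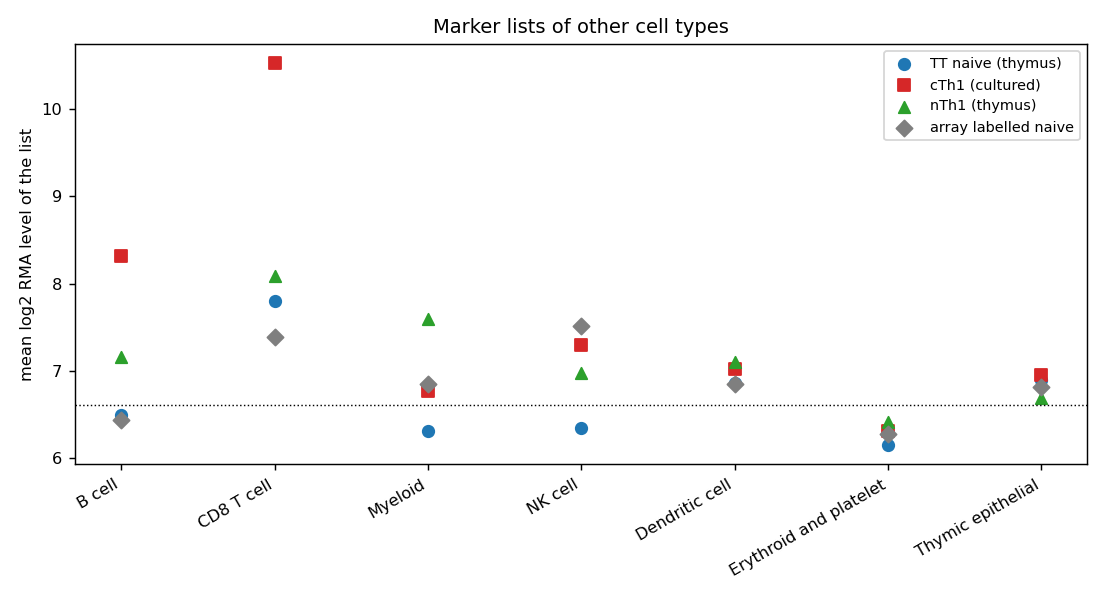
Mean level (y axis, log2 RMA) of each marker list of another cell type (x axis) on the 4 arrays, 1 point for each array, with a dotted line at the filter of 6.61. B cell and CD8 T cell lists stand highest in cTh1 (8.31 and 10.53), and the myeloid list stands highest in nTh1 (7.59).

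The 15 most different named genes in each direction included genes outside these programmes. Besides genes given above, Serpinb5 (5.47 in TT naive and 10.87 in cTh1), a serpin of epithelial cells, and Slamf7 (7.92 and 12.55), a receptor of cytotoxic and plasma cells, were among the highest. Ly6a2 (7.18 and 11.58) was too, but belongs to a multigene family and is uncertain. At the other end, Nrgn, a calmodulin-binding protein, was at 11.33 in TT naive, 6.21 in cTh1 and had the lowest difference, -5.12. Il17rb, the receptor for IL-25, was at 10.33 in TT naive and 5.73 in cTh1. Chl1, an adhesion molecule, was at 9.31 in TT naive, 4.98 in cTh1, 7.51 in nTh1 and 9.94 on the array labelled naive, and the cytoskeletal genes Map2 and Cap2 were lower by 3.55 and 3.24 on the log2 scale. Akr1c18 (-4.01), Chn2 (-3.57), Exph5 (-3.27) and Ntrk3 (-3.08) complete the named set. The array labelled naive was above TT naive for Nrgn, Il17rb, Chl1, Akr1c18, Chn2, Map2, Cap2 and Ntrk3.

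Probe sets outside the named genes behaved differently from them. Above the filter stood 7973 probe sets without a gene name: cTh1 exceeded TT naive by 2-fold or more in 266 (3.34%) of them and fell short by as much in 2168 (27.2%), and their median was -0.40. MicroRNA genes gave 2 higher and 26 lower of 138, with a median of -0.19, and small nucleolar RNA genes 8 higher and 15 lower of 64, with -0.32. Over all named genes 7.24% were higher and 3.02% lower. The named protein-coding lists above therefore describe a set whose median was 0.03, and unnamed probe sets do not share it.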

How the data were processed

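RNA was purified on columns, and 300 ng of it was labelled with biotin for Affymetrix gene arrays, per the labels' protocols. Per the submitters' processing notes, the deposited log2 values are RMA values, and the authors computed them with version 1.3.1 of Affymetrix Expression Console. RMA forces the arrays to one distribution, so a change in total RNA is not seen. Neither the summary level nor the version of the annotation is stated in the sources used here. The 4 arrays held 41345 probe sets with 0 values missing, whose medians lay between 6.52 and 6.70, and the number of arrays limits the precision. The platform annotation gave 23521 probe sets 1 gene symbol, 1814 several and 16010 none; gene IDs of 23328 were in the RefSeq table of GRCm38.p6, and 0 symbols differed.

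For a gene with several probe sets (1082 of 22180) the one with the highest mean over 4 arrays was used. A gene was counted when either array reached 6.61, and called at 2-fold. The design has 1 array for each group, so no test was run and the error is the SD among a gene's probe sets. The 44 gene lists hold 827 symbols, of which 762 were measured (3 through a synonym) and 65 were not analysed here. List medians are over all measured members. The gene lists and the comparison were chosen with earlier results of these data known. The naming rule took the 15 highest and 15 lowest genes and all members of the core Th1 and sex-linked lists. It also took 6 members of each other list. Not every gene of the rule is printed in the text, and members of the core lists are among those left out. A further 49 genes were named after their values were seen. Promoters came from RefSeq, motif letters were matched on both strands. Alternatives were no filter, a filter at the 75th percentile, median centring, removal of a loess trend (span 0.3), the mean of all probe sets, other baselines, a 3-fold threshold and omission of proliferation genes. Omission of other cell types or of small RNA and predicted genes, and a probe set choice over the 2 arrays, were chosen after seeing the data. The work used matplotlib 3.10.9, statsmodels 0.14.6, scipy 1.17.1, pandas 2.3.3 and numpy 2.4.6 in Python 3.11.15.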

Additional observations from a re-analysis of the deposited data

How the results depend on the processing

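The counts of 921 genes higher and 384 lower at 2-fold stayed within 1.5 times under every alternative that kept the threshold: they ran from 659 (array labelled naive as baseline) to 1066 (nTh1 as baseline) higher and from 267 (filter at the 75th percentile) to 444 (nTh1 as baseline) lower. At 3-fold they were 401 and 105, since the threshold is stricter. Centring and the loess correction moved 0 of 342 gene differences and 0 of 44 list medians by more than the probe set SD of 0.44. With the mean of all probe sets 14 gene differences moved by more, among them Irf8 (1.75) and Ebi3 (1.70). Against the array labelled naive 152 of 342 gene differences and 7 of 44 medians moved by more than that SD, and against nTh1 133 and 11, beside the genes that turned as follows. Signs were checked for these 342 genes only, and other list members, such as S100a4 and Egr3, also turned. Among genes at least 2-fold different from TT naive, the sign turned against the array labelled naive for Ccr2 (-0.0496), Lyz2 (-0.75), Maf (-0.17), Perp (-1.20), Tigit (-0.13) and Cd44 (-0.0586), and the medians of Th1 receptors and mitosis were 0.91 and 0.46. Against nTh1 it turned, among such genes, for Igfbp4 (0.77), Il21 (0.70), Lyz2 (-2.27), Mpeg1 (-0.45), Prf1 (-0.94), Stat4 (-0.0845), Gpr83 (0.0224), Cd44 (-0.76) and Dntt (-0.90), and the median of heat shock chaperones was -0.20. The cause was not tested. With the filter at the 75th percentile 7 list medians moved by more than that SD, since fewer members enter, among them Th1 factors (1.39). No paired analysis was possible because each group had 1 array, and for the same reason no array could be left out. A difference near the filter of 6.61 is limited by background signal.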

Other observations

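Other genes with large differences, chosen after their values were seen, fell outside the lists. The metallothioneins, small proteins that bind zinc and copper, were higher in cTh1: Mt2 was at 6.36 in TT naive and 9.60 in cTh1, and Mt1 at 7.19 and 9.73. The interleukin-8 type chemokine receptors Cxcr2 and Cxcr1, best known from neutrophils, were at 6.67 and 6.75 in TT naive and 10.58 and 10.22 in cTh1, and between 6.38 and 7.31 on the other arrays. Klrc1, which encodes the NKG2A receptor, was at 5.26 and 9.58, and Klrb1f, another lectin-like receptor, at 6.54 and 10.09; both belong to multigene families and are uncertain. Cd80, a costimulatory ligand, was at 6.48 and 10.11, the inflammatory caspase gene Casp4 at 5.61 and 9.22, the stress gene Gadd45g at 6.79 and 10.24, and the plasma membrane calcium pump gene Atp2b4 at 7.32 and 11.24. For each gene named so far cTh1 was the highest of the 4 arrays. Among lower genes, Dtx1, a Notch pathway regulator, was at 10.92 in TT naive and 8.48 in cTh1, and Rgs2, a brake on G protein signals, at 11.39 and 9.48. These values have no replicate and no test.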
